A study of Rattus norvegicus with 8 samples.

Results

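The solute carriers (SLC) are membrane proteins that move amino acids, sugars, ions, vitamins, nucleosides and metabolites across the plasma membrane and the membranes of organelles. Members were taken as every gene on a rat expression array whose annotation gave a single symbol beginning with Slc and a digit, without the glucose transporter Slc2a1 and the monocarboxylate transporters Slc16a1 and Slc16a3. The rule took 176 probe sets for 117 of the 4736 genes with a single symbol on the array, and each gene was represented by its probe set of highest mean signal over the 8 arrays. In 41 of the genes more than 1 probe set was available. The cells were primary pulmonary artery smooth muscle cells, grown out of vessel explants from adult Sprague-Dawley rats after the endothelium and the adventitia had been removed. Cells without treatment were compared with cells given S-nitrosoglutathione (GSNO), a nitrosothiol that donates nitric oxide, for 1, 2 or 4 h. Each of these 4 groups has 2 arrays. The GSNO concentration is given as 100 µmol/L in one description of the study and as 100 mmol/L in another, and the data do not settle which is right. Untreated cells carry no time, so time in culture and time in GSNO cannot be told apart. The 2 arrays of a group come from independent preparations of cells, and p-values measure the spread between those arrays. In the paired fit described below they measure the spread left after the shared difference between the arrays numbered 1 and 2 is taken out.

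Carriers fall into uniporters and facilitators that let a solute run down its gradient, symporters that use the sodium or proton gradient, and exchangers that trade one solute for another. In vascular smooth muscle the sodium-calcium exchanger Slc8a1, the sodium-potassium-chloride cotransporter Slc12a2 and the sodium-bicarbonate and chloride-bicarbonate carriers of the Slc4 family are known for setting cytosolic calcium, cell chloride and pH. Amino acid carriers supply arginine for nitric oxide synthesis and, through cystine uptake, cysteine for glutathione. Slc3a2, the heavy chain also called 4F2hc or CD98, is a single-pass protein that carries the light chains of the Slc7 family to the cell surface. Many amino acid carrier genes are targets of ATF4, a transcription factor of the amino acid and endoplasmic reticulum stress responses.

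Of the 117 genes, 84 (71.8%) reached the array's 40th percentile of signal on at least 2 of the 8 arrays and are called expressed here. The same rule took 73.3% of the 4736 genes on the array, and 58 carriers (49.6%) against 54.3% of all genes reached that level on all 8 arrays. The 40th percentile lay between 57.2 and 91.0 signal units, and the authors' scaling set the mean signal of each array, trimmed by 2% at each end, to 500. No detection calls were analysed here, so the threshold is a level of signal and not proof of a transcript. Carriers known for neurons, such as the dopamine transporter Slc6a3, the serotonin transporter Slc6a4 and the vesicular acetylcholine transporter Slc18a3, reached it on all 8 arrays. Slc18a3, for example, read 205 and 234 in untreated cells. Other probe sets of these genes were lower: that of Slc6a3 reached the threshold on 2 arrays, that of Slc6a4 on 1, and that of Slc18a3 on 6, with 205 and 0.237 in untreated cells. As a check of the cell type, 8 of the 9 smooth muscle markers on the array reached the threshold on all 8 arrays, among them Acta2, Tagln, Cnn1 and Myh11, with a summed signal of 54120 to 89640 per array. Of 5 endothelial markers, 2 (Pecam1 and Nos3) reached the threshold on at least 2 arrays and none on all 8, and Kdr and Sele reached it on no array, with a summed signal of 148 to 370. All 6 fibroblast markers reached it, with summed signals of 20520 and 25330 in untreated cells, 11950 and 27070 at 1 h, 13100 and 21360 at 2 h and 17660 and 15140 at 4 h. Of 3 leukocyte markers 2 reached the threshold, Cd14 on all 8 arrays and Ptprc on 7, with summed signals of 300.2 to 611 per array, and Csf1r on none. Of 5 lung epithelial markers only Sftpb reached it, on all 8 arrays (sum 280.0 to 582). Of 6 cardiac and skeletal muscle markers 5 reached it, none on all 8 arrays (sum 378 to 774). The part of these markers in the carrier results was not tested. In such bulk samples fewer cells of a type and less RNA per cell cannot be told apart.

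The carriers with the strongest signal in untreated cells were mitochondrial. Slc25a4, an ADP/ATP carrier of the inner mitochondrial membrane, read 7631 ± 735 (SD, n = 2), and Slc25a3, the mitochondrial phosphate carrier, read 6486 ± 322. Slc25a5, a further ADP/ATP carrier, followed with 3751 ± 886. Slc35b1, an endoplasmic reticulum nucleotide sugar transporter family member, read 2491 ± 399, the citrate carrier Slc25a1 read 2360 ± 132, and Slc3a2 read 1928 ± 134. Below them came Slc25a17, a peroxisomal member of the Slc25 family, at 1468 ± 77.8, the oxoglutarate carrier Slc25a11 at 1234 ± 264, the potassium-chloride cotransporter Slc12a4 at 1125 ± 12.9 and the fatty acid transporter Slc27a1 at 998 ± 446. These are signals of different probe sets, so their order is not an order of transcript amounts. The names of the Slc25a4 and Slc25a5 probe sets end in a suffix given to probes that other transcripts can share, so these close relatives may not be fully separated.

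**Figure D1:**
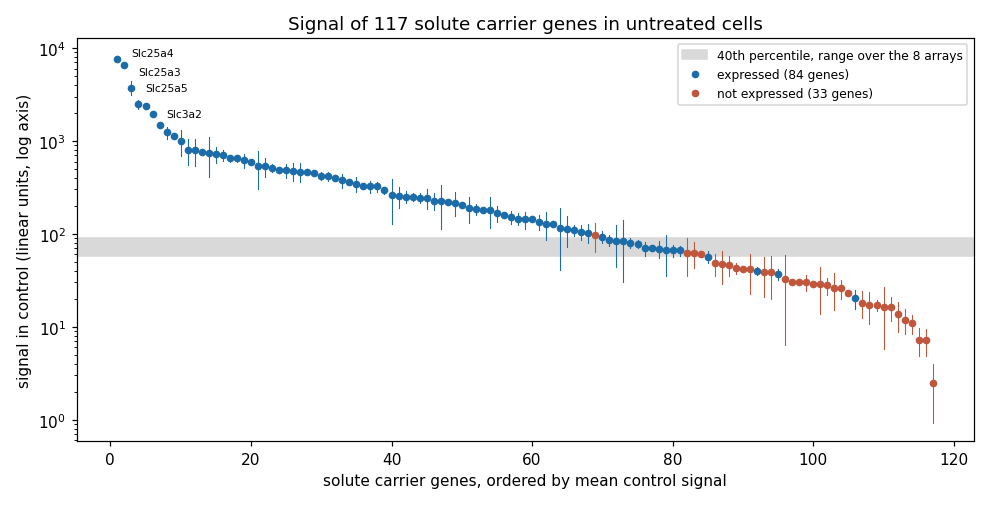
Signal of the 117 solute carrier genes in untreated cells, ordered by mean; the points are means of 2 arrays, the vertical lines join the arrays, the y axis is logarithmic and the grey band is the range of the 40th percentile over the 8 arrays. The 84 expressed genes are blue and the 33 others red; Slc25a4 and Slc25a3 stand highest, at 7631 and 6486.

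The 33 genes below the threshold included carriers known for kidney, liver, gut or brain. They were the bile acid carrier Slc10a1; Slc12a1 and Slc12a5; Slc13a1, Slc13a2 and Slc13a3; the peptide carriers Slc15a1 and Slc15a2; Slc16a12, Slc17a1, Slc17a7, Slc18a1 and Slc1a6. The organic ion carriers Slc22a2, Slc22a25, Slc22a3 and Slc22a6, with Slc24a2, Slc25a23, Slc28a2, the glucose and fructose carriers Slc2a2 and Slc2a5, Slc35f6, Slc37a1, Slc44a4, Slc5a2 and the iodide carrier Slc5a5, were below it too. So were Slc6a15, Slc6a17, the cationic amino acid carrier Slc7a2 and the sodium-proton exchangers Slc9a2, Slc9a3 and Slc9a4. Of these, 7 reached the threshold on 1 array and 26 on none. Slc7a2, just outside, read 42.5 and 81.1 in untreated cells and 39.8 and 52.9 at 4 h. Just inside, with 2 arrays each, were Slc22a13, Slc16a7, Slc6a13, Slc27a2 and Slc16a6. Another 7 reached it on 3 arrays.

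No expressed carrier passed an adjusted p of 0.05 at any time in the fit of the 4 groups by limma, with p-values adjusted over all 5877 probe sets kept. Over all probe sets that fit called 0.527% at 1 h, 0.97% at 2 h and 1.53% at 4 h against untreated cells. At an unadjusted p under 0.05 it took 1 carrier at 1 h, 2 at 2 h and 4 at 4 h, or 1.19%, 2.38% and 4.76% of the 84, against 3.01%, 6.13% and 11.1% of all probe sets. The arrays numbered 1 and those numbered 2 were scanned on different days, and their deviations from the group means correlated positively in all 6 pairs of groups (r of 0.387 to 0.569). The fit was therefore repeated with the array number as a block, called the paired fit below. It called 0 carriers at 1 h (1.34% of all probe sets), 2 at 2 h (3.16%) and 3 at 4 h (7.93%). In it Slc3a2 was called higher at 2 h and 4 h, Slc6a9 lower at 2 h, and Slc6a6 and Slc6a18 lower at 4 h. Slc6a18 was kept through the group where it is high, so its call is a description only. With the recorded experiment of the scanner records as the block in place of the array number, 1 of these paired calls passed, Slc3a2 at 2 h, and none at 4 h. In those records the first control array shares an experiment only with the first 2 h array. The first 1 h and 4 h arrays share a different one, and all second arrays share another. So 1 h and 4 h meet untreated cells within an experiment only in the second arrays. A call lost there under this block may reflect that smaller comparison, which was not tested. At an unadjusted p under 0.05 the paired fit took 3, 9 and 17 carriers at 1, 2 and 4 h, against 5.73%, 12.1% and 21.2% of all probe sets. The share of carriers taken, 3.57%, 10.7% and 20.2%, lay below those figures.

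The carriers' median log2 fold change, on the scale log2(signal + 21.1), was −0.04 at 1 h, −0.08 at 2 h and −0.23 at 4 h, beside −0.05, −0.06 and −0.16 over all kept probe sets. At 4 h 63 of the 84 carriers (75%) lay below 0, beside 64.6% of all probe sets. When arrays were scaled to a common median the medians at 4 h became −0.04 for carriers and 0.04 for all probe sets, and 45 carriers lay below 0; with quantile normalization 54 did. Both arrays lay above both control arrays for 8, 10 and 7 carriers at 1, 2 and 4 h, against 10.1%, 12.9% and 13.4% of all probe sets. Both lay below for 10, 17 and 24 carriers, against 13.0%, 17.0% and 27.5%, so at 4 h the share of 28.6% was near the background. Log2 differences past 1 were seen in no carrier at 1 h, beside 2.38% of all probe sets higher and 0.868% lower. At 2 h 1 carrier was past 1 higher and 2 lower, beside 3.39% and 2.23% of all probe sets. At 4 h 0 were higher and 6 lower, beside 4.68% and 5.82%. The median at 4 h was −0.36 among the arrays numbered 1 and −0.08 among those numbered 2.

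**Figure D2:**
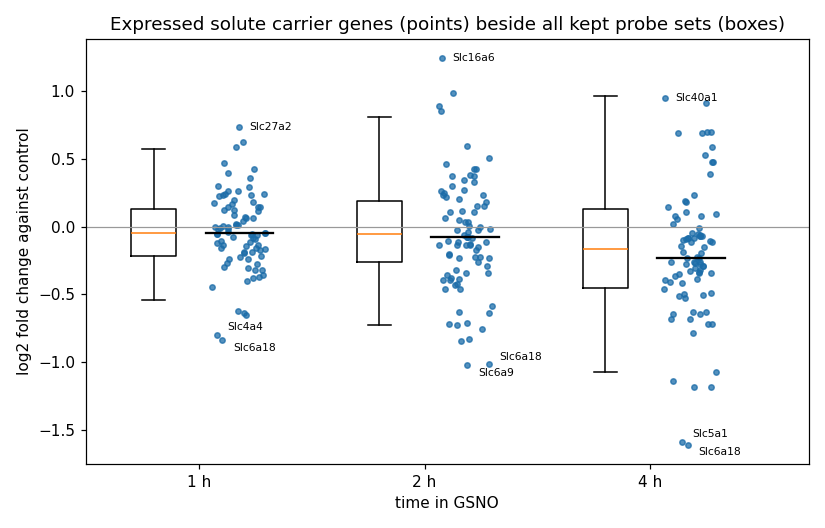
Log2 fold change against untreated cells at each time for the 84 expressed solute carrier genes (blue points, black bar the median) beside all 5877 kept probe sets (box from the 25th to the 75th percentile, orange line the median, whiskers at the 5th and 95th). The carriers' medians are −0.04, −0.08 and −0.23, and most points lie within the whiskers at each time.

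Of 16 genes for amino acid carriers of the plasma membrane 12 were expressed: Slc1a1, Slc1a2, Slc1a3, Slc3a1, Slc3a2, Slc6a6, Slc6a9, Slc6a18, Slc6a20a, Slc7a1, Slc7a3 and Slc7a5. In the paired fit 1 of them passed higher and 1 lower at 2 h, and 1 higher and 2 lower at 4 h, beside 3.16% and 7.93% of all probe sets in either direction. With a common median added, the paired calls at 4 h were Slc3a2 and the metal carrier Slc40a1. Their median at 4 h was −0.29, with 3 above 0 and 9 below; with a common median it was −0.11, with 5 above and 7 below.

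Slc3a2 read 1834 and 2023 in untreated cells, 2850 and 2961 at 1 h, 3077 and 3981 at 2 h and 2921 and 3333 at 4 h. Every GSNO array lay above both control arrays, and the signal was highest at 2 h. The log2 fold change was 0.59, 0.85 and 0.69 at 1, 2 and 4 h (SE 0.23 without the block, 0.16 with it), or 1.81-fold higher at 2 h and 1.61-fold at 4 h. The adjusted p was 1.00, 0.265 and 0.27 without the block and 0.201, 0.014 and 0.0242 in the paired fit. Within the arrays numbered 1 the difference at 2 h was 0.74 and within those numbered 2 it was 0.97; at 4 h the differences were 0.67 and 0.71. The paired call at 2 h was lost when arrays were also scaled to a common median (adjusted p = 0.17), while the call at 4 h was kept (0.0474). With 1 array left out the paired adjusted p ran from 0.0114 to 0.189 at 2 h, where it passed without any 1 h or 4 h array and not without a control or 2 h array. At 4 h it ran from 0.0297 to 0.142 and passed only without a 1 h array. With the recorded experiment as block it was 0.0443 at 2 h and 0.188 at 4 h. A separate Slc3a2 probe set read 1326 and 1619 untreated and 2168 and 2814 at 2 h, with log2 fold changes of 0.42, 0.75 and 0.58 and a paired adjusted p of 0.0463 at 2 h and 0.0743 at 4 h. Its partner Slc7a5, the light chain of the large neutral amino acid transporter, read 1058 and 551 untreated and 857 and 1087 at 2 h. Slc7a5 differed by 0.33 ± 0.35 (SE) at 2 h and −0.11 ± 0.35 at 4 h, with overlapping groups.

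Slc6a9, the glycine transporter GlyT1, fell at 2 h in the paired fit. Its signal was 598 and 697 in untreated cells, 371 and 627 at 1 h, 233 and 404 at 2 h and 636 and 747 at 4 h. The 2 h arrays lay below both control arrays, whereas those at 4 h overlapped them. The log2 fold change was −0.40, −1.02 and 0.09 (SE 0.35, 0.23 with the block), which is 2.03-fold lower at 2 h. The adjusted p at 2 h was 0.514 without the block and 0.0399 in the paired fit, and within array numbers the difference was −1.28 and −0.76. With a common median or quantile normalization added, the paired adjusted p was 0.0751 or 0.0528, and leaving out 1 array gave 0.029 to 0.451, passing only without a 4 h array. It was 0.0893 with the recorded experiment as block. From 2 h to 4 h it differed by 1.11, with an adjusted p of 0.784 and 0.0718 in the paired fit.

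Slc6a6 is the taurine transporter, which brings an osmolyte into the cell. It read 1089 and 408 in untreated cells, 765 and 230 at 1 h, 535 and 296 at 2 h and 461 and 182 at 4 h. The arrays numbered 1 read higher than those numbered 2 in every group, so the groups overlapped, and within each array number the signal was lowest at 4 h. The log2 fold change was −0.64, −0.72 and −1.14 (SE 0.68, 0.24 with the block). At 4 h it was −1.20 within the arrays numbered 1 and −1.08 within those numbered 2, and the signal was 2.20-fold lower. The adjusted p at 4 h was 0.613 without the block and 0.0183 in the paired fit. That call was kept with quantile normalization (0.0299) and lost with a common median (0.0899), and leaving out 1 array gave 0.0189 to 0.17. It passed without any 1 h or 2 h array or the second 4 h array, and not without a control array or the first 4 h array. It was 0.0601 with the recorded experiment as block.

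Slc6a18, a kidney neutral amino acid transporter, was near the floor of the array. It reached the 40th percentile on 3 arrays, the 2 untreated ones and 1 at 1 h, so it was kept through the group where it is high, and its call is given as a description only. It read 158 and 109 untreated, 102 and 38.6 at 1 h, 54.6 and 54.4 at 2 h and 42.8 and 18.3 at 4 h. GSNO arrays lay below both control arrays at each time. The log2 fold change was −0.84, −1.02 and −1.61 (SE 0.49, 0.41 with the block), with an adjusted p at 4 h of 0.2 and of 0.0429 in the paired fit. The paired value was 0.068 with a common median and 0.12 with quantile normalization, and 0.0489 to 0.248 with 1 array left out, passing only without the first 2 h array. With the recorded experiment as block it was 0.0798.

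**Figure D3:**
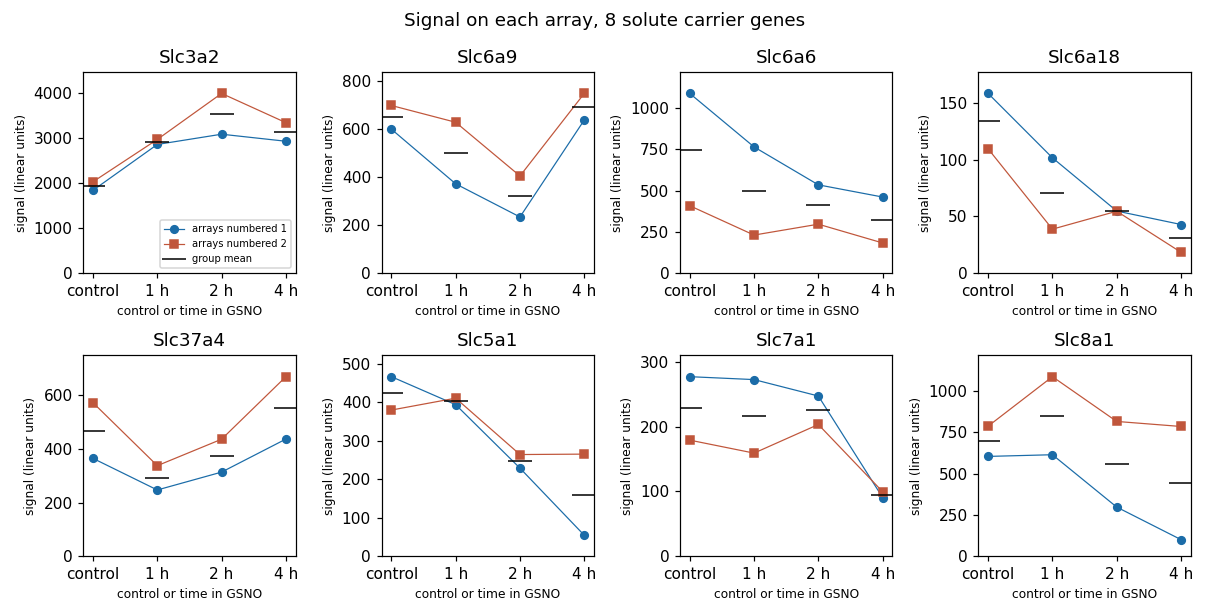
Signal on each array of 8 solute carrier genes against group, with linear y axes starting at 0; blue circles are the arrays numbered 1, red squares those numbered 2, lines join arrays of a number and black bars are the means of 2 arrays. Slc3a2 lies above its control arrays at every time, and Slc6a9 is lowest at 2 h, with 233 and 404.

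Slc7a1, the arginine and lysine carrier CAT-1, read 277 and 179 in untreated cells, 272 and 159 at 1 h, 247 and 203 at 2 h and 90.5 and 99.5 at 4 h. Both 4 h arrays lay below all 6 others. The difference at 4 h was −1.07 ± 0.35 (SE), 2.11-fold lower, with an adjusted p of 0.251 and 0.0549 in the paired fit, so it did not pass. Its other kept probe sets gave −0.94 and −1.13 at 4 h. Slc1a2, a glutamate transporter known from glia, read 172 and 85.2 untreated and 73.3 and 21.0 at 4 h, a difference of −1.18 ± 0.56 (SE) with an adjusted p of 0.497. The other Slc1a2 probe sets reached the threshold on no array. Slc1a3, Slc1a1, Slc3a1, Slc7a3 and Slc6a20a passed neither fit.

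The promoter windows of the carriers with paired calls, 250 bases before to 50 after the annotated start, were read from RefSeq (GRCr8). They are shown for Slc3a2, which rose, and Slc6a6, which fell in the paired fit, with the matched motif in capitals. The Slc3a2 window lies at chr1:215048015-215048314 on the minus strand and holds a cAMP response element motif (TGACG) on its opposite strand, 18 bases before the start. The Slc6a6 window lies at chr4:125752252-125752551 on the plus strand and holds an antioxidant response element core (TGACNNNGC) on its opposite strand, 101 bases before the start.
Slc3a2: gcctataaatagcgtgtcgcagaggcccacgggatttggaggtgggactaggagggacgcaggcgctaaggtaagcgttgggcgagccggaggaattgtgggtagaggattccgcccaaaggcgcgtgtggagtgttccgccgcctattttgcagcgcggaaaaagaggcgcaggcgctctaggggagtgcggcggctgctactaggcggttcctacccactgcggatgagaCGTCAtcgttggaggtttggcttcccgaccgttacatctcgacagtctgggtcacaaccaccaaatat
Slc6a6: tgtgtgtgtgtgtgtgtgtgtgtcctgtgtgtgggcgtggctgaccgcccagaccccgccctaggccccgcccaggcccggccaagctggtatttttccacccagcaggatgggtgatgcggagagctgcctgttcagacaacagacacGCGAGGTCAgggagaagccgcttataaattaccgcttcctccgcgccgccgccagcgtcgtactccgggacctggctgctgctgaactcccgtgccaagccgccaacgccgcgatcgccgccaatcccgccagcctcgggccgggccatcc
The search covered both strands for 4 motifs, the other 2 being the C/EBP-ATF core TGATGNAA and the E-box CACGTG; none of the 4 lay in the Slc6a9 window. TGACG was also in the windows of Slc6a18, 18 bases after the start, and Slc37a4, 20 bases before it. Slc3a2 was called higher against untreated cells in the paired fit. The lower call of Slc6a18 is a description only, since it was kept through the group where it is high. Slc37a4 was called only from 1 h to 4 h. Of 117 members 98 had a window, 69 of them expressed. The letters TGACG were in 18 of the 69 (26.1%) and in 22.0% of all 27457 windows. The antioxidant core was in 14 (20.3%) and in 12.2% of all, TGATGNAA in 2 (2.90%) and in 3.82%, and CACGTG in 7 (10.1%) and in 6.65%. The 27457 windows include those of genes not expressed here or not on the array, so the shares are not like for like. The matches describe letters in these windows and no binding was measured.

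Slc6a6 and Slc6a9 were counted with the amino acid carriers above. None of the remaining neurotransmitter and osmolyte carriers passed either fit against untreated cells. Of 14 genes 11 were expressed: Slc6a2, Slc6a3, Slc6a4, Slc6a5, Slc6a7, Slc6a8, Slc6a11, Slc6a13, Slc18a2, Slc18a3 and Slc32a1. All 11 lay below 0 at 4 h, with a median of −0.29; scaling to a common median left 8 of 11 below 0 and a median of −0.12. Slc6a8, the creatine transporter, read 580 and 863 untreated and 543 and 816 at 4 h, a difference of −0.08 ± 0.32 (SE). The proline transporter Slc6a7 had the largest difference, from 126 and 94.1 untreated to 45.9 and 63.6 at 4 h (−0.79 ± 0.36, adjusted p = 0.477). Slc32a1, the vesicular transporter for GABA and glycine, read 171 and 114 untreated and 70.0 and 94.2 at 1 h, a difference of −0.65 ± 0.45 (SE). A separate Slc32a1 probe set gave 0.11 at 1 h, with overlapping groups.

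The sugar and polyol carriers expressed were Slc2a3, Slc2a4, Slc5a1, Slc5a3 and Slc37a4, 5 of 9. Slc2a3, the glucose transporter GLUT3, read 706 and 589 untreated, 1007 and 724 at 1 h, 958 and 711 at 2 h and 431 and 654 at 4 h. Both arrays lay above the control arrays at 1 h and 2 h and overlapped them at 4 h, and the difference of 0.39 ± 0.31 (SE) at 1 h did not pass. Slc5a1, the sodium-glucose cotransporter SGLT1, read 467 and 380 untreated, 394 and 411 at 1 h, 229 and 265 at 2 h and 54.7 and 266 at 4 h. Its difference at 4 h was −1.59 ± 0.54 (SE) with an adjusted p of 0.274 and 0.0604 in the paired fit. The 4 h arrays disagreed in size, with −2.69 for the arrays numbered 1 and −0.49 for those numbered 2. Without the second 4 h array the change was −2.55 and passed (adjusted p = 0.0226). A separate Slc5a1 probe set gave −0.68 at 4 h.

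Slc37a4, the glucose-6-phosphate transporter of the endoplasmic reticulum, differed between GSNO times. It read 364 and 571 untreated, 247 and 337 at 1 h, 313 and 436 at 2 h and 436 and 668 at 4 h. Both 1 h arrays lay below both control arrays, and within each array number the signal was lowest at 1 h and highest at 4 h. From 1 h to 4 h it differed by 0.86 on the log2 scale, 1.81-fold, with an adjusted p of 0.501 and of 0.0445 in the paired fit, higher at 4 h. The paired value was 0.0317 with a common median and 0.0391 with quantile normalization, but 0.0757 with the recorded experiment as block and 0.0648 to 0.294 with 1 array left out. Against untreated cells it differed by −0.63, −0.29 and 0.23 and passed at no time. Its separate probe set gave −0.40, −0.13 and 0.30.

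The acid-base and anion exchangers expressed were Slc4a1, Slc4a2, Slc4a3, Slc4a4, Slc4a7, Slc26a1 and Slc26a2, 7 of 10. None passed in either fit against untreated cells. Slc4a2, the chloride-bicarbonate exchanger AE2, read 304 and 772 untreated, 161 and 740 at 1 h, 267 and 725 at 2 h and 1038 and 847 at 4 h. The 4 h arrays were the highest, and the difference was 0.92 ± 0.73 (SE, adjusted p = 0.7), and both 4 h arrays exceeded their own control array, by more on the arrays numbered 1. A separate Slc4a2 probe set read 517 and 537 untreated and 872 and 609 at 4 h, a difference of 0.45. The sodium-bicarbonate cotransporter Slc4a4 read 82.8 and 55.3 untreated and 18.8 and 44.7 at 1 h (−0.80 ± 0.71), and its 4 h arrays read 155 and 15.6. Slc4a4 reached the threshold on only 3 of the 8 arrays, so it lay near the floor.

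Among cation-chloride, phosphate and calcium carriers, 9 of 16 genes were expressed: Slc8a1, Slc8a2, Slc8a3, Slc12a2, Slc12a3, Slc12a4, Slc12a7, Slc20a2 and Slc34a1. None passed either fit, and the median at 4 h was −0.53, with 8 of 9 below 0. With a common median it was −0.34, with 6 of 9 below 0, and within the arrays numbered 1 and 2 it was −0.74 and −0.10. Slc8a1, the sodium-calcium exchanger NCX1, read 605 and 788 untreated, 615 and 1088 at 1 h, 298 and 817 at 2 h and 101 and 786 at 4 h. The low values came from the arrays numbered 1, where the difference at 4 h was −2.36, beside −0.00 for those numbered 2. The pooled difference was −1.18 ± 0.82 (SE, adjusted p = 0.657), and without the first 4 h array it was 0.18. Other Slc8a1 probe sets gave −0.37, −1.05 and −0.14 at 4 h. Slc12a4, the potassium-chloride cotransporter KCC1, read 1134 and 1115 untreated and 837 and 747 at 4 h, with both 4 h arrays below the control arrays (−0.50 ± 0.26, adjusted p = 0.556). Another Slc12a4 probe set gave −0.22 at 4 h, with overlapping groups. Slc12a7 read 431 and 467 untreated and 213 and 365 at 4 h (−0.64 ± 0.32). Slc12a2, the cotransporter NKCC1, read 246 and 114 untreated and 84.9 and 119 at 4 h (−0.64 ± 0.38), with overlapping groups.

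The metal ion carriers had a median of 0.02 at 4 h, which was 0.20 with a common median and 0.24 with quantile normalization. All 7 on the array were expressed: Slc11a2, Slc30a1, Slc30a2, Slc30a4, Slc40a1, Slc41a2 and Slc41a3. Slc40a1 is ferroportin, the exporter of iron. It read 125 and 166 untreated, 108 and 218 at 1 h, 173 and 234 at 2 h and 194 and 455 at 4 h. Both arrays lay above the control arrays at 2 h and 4 h, and the 4 h difference was 0.95 ± 0.46 (SE), 1.93-fold. The adjusted p was 0.514, and 0.089 in the paired fit; with a common median added it was 0.0198 and with quantile normalization 0.0359. A separate Slc40a1 probe set gave 0.39 at 4 h, with overlapping groups. Slc11a2, the divalent metal importer DMT1, read 449 and 527 untreated and 342 and 463 at 4 h (−0.28 ± 0.26). The magnesium carrier Slc41a2 read 303 and 186 untreated and 374 and 428 at 4 h (0.70 ± 0.33, adjusted p = 0.497).

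Nucleoside, vitamin, peptide and urea carriers were expressed in 10 of 14 genes: Slc5a6, Slc14a1, Slc14a2, Slc15a4, Slc19a1, Slc23a3, Slc28a1, Slc29a1, Slc29a2 and Slc52a3. None passed against untreated cells, and the median at 4 h was −0.30, or −0.10 with a common median and −0.14 with quantile normalization. Slc29a1, the equilibrative nucleoside transporter ENT1 that takes up adenosine, read 312 and 445 untreated, 260 and 341 at 1 h, 416 and 299 at 2 h and 738 and 520 at 4 h. Both 4 h arrays lay above all 6 others. The difference at 4 h was 0.70 ± 0.32 (SE, adjusted p = 0.477) against untreated cells and 1.01 against 1 h (adjusted p = 0.318, and 0.0851 in the paired fit). Its relative Slc29a2 read 284 and 364 untreated and 200 and 313 at 4 h (−0.34 ± 0.30). The urea transporter Slc14a2 read 822 and 713 untreated and 658 and 835 at 4 h (−0.05 ± 0.24). A separate Slc14a2 probe set read 7.3 and 34 untreated and reached the threshold on no array. The reduced folate carrier Slc19a1 read 629 and 567 untreated and 456 and 428 at 4 h (−0.42 ± 0.23), both below the control arrays. Another Slc19a1 probe set gave −0.29 at 4 h, with overlapping groups. The riboflavin transporter Slc52a3 read 57.5 and 82.0 untreated and 46.4 and 23.6 at 2 h (−0.71 ± 0.44), near the floor, and reached the threshold on only 4 arrays.

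Organic ion, bile acid, monocarboxylate and fatty acid carriers were expressed in 10 of 16 genes: Slc10a2, Slc16a6, Slc16a7, Slc16a8, Slc22a5, Slc22a7, Slc22a13, Slc22a18, Slc27a1 and Slc27a2. Only 4 of them reached the threshold on all 8 arrays, and none passed in either fit against untreated cells. Slc27a1 read 683 and 1313 untreated and 1171 and 1616 at 4 h (0.53 ± 0.41), with overlapping groups. Slc16a6, a monocarboxylate carrier family member, read 25.2 and 15.7 untreated and 141 and 38.0 at 2 h. Its 2 h difference of 1.24 ± 0.63 (SE, adjusted p = 0.987) was the largest upward one, and it counted as expressed only through 2 GSNO arrays where it is high, so its difference is a description. The carnitine transporter Slc22a5 read 40.9 and 188 untreated and 124 and 327 at 2 h (0.98 ± 0.67), with overlapping groups. Slc27a2 read 41.7 and 32.3 untreated, 35.7 and 144 at 1 h and 54.4 and 131 at 2 h (0.74 ± 0.60 and 0.89 ± 0.60), the higher values on the arrays numbered 2. It too counted as expressed only through its 2 high GSNO arrays, so a higher value there follows from the filter.

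None of the mitochondrial carriers passed either fit against untreated cells. Of 12 genes 11 were expressed, all on all 8 arrays: Slc25a1, Slc25a3, Slc25a4, Slc25a5, Slc25a10, Slc25a11, Slc25a14, Slc25a17, Slc25a20, Slc25a26 and Slc25a30. Their differences at 4 h ran from −0.63 to 0.39 with a median of −0.07, and 5 lay above 0; with a common median 9 did and the median was 0.15. Slc25a4 read 8150 and 7112 untreated and 9384 and 7976 at 4 h (0.18 ± 0.24). Slc25a3 read 6714 and 6259 untreated, 7792 and 7520 at 1 h, 7200 and 7208 at 2 h and 9414 and 7689 at 4 h. All of its GSNO arrays lay above both control arrays, and the 4 h difference was 0.39 ± 0.23 (SE, adjusted p = 0.601, and 0.159 in the paired fit). Slc25a26, the carrier of S-adenosylmethionine, read 301 and 354 untreated and 165 and 251 at 4 h (−0.63 ± 0.31, adjusted p = 0.529). Of 3 genes of the Slc35 family of Golgi and endoplasmic reticulum carriers, Slc35a1 and Slc35b1 were expressed; Slc35b1 read 2774 and 2209 untreated, 2645 and 1763 at 1 h and 2727 and 2040 at 4 h, with differences of −0.19 ± 0.31 at 1 h and −0.07 ± 0.31 at 4 h.

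**Figure D4:**
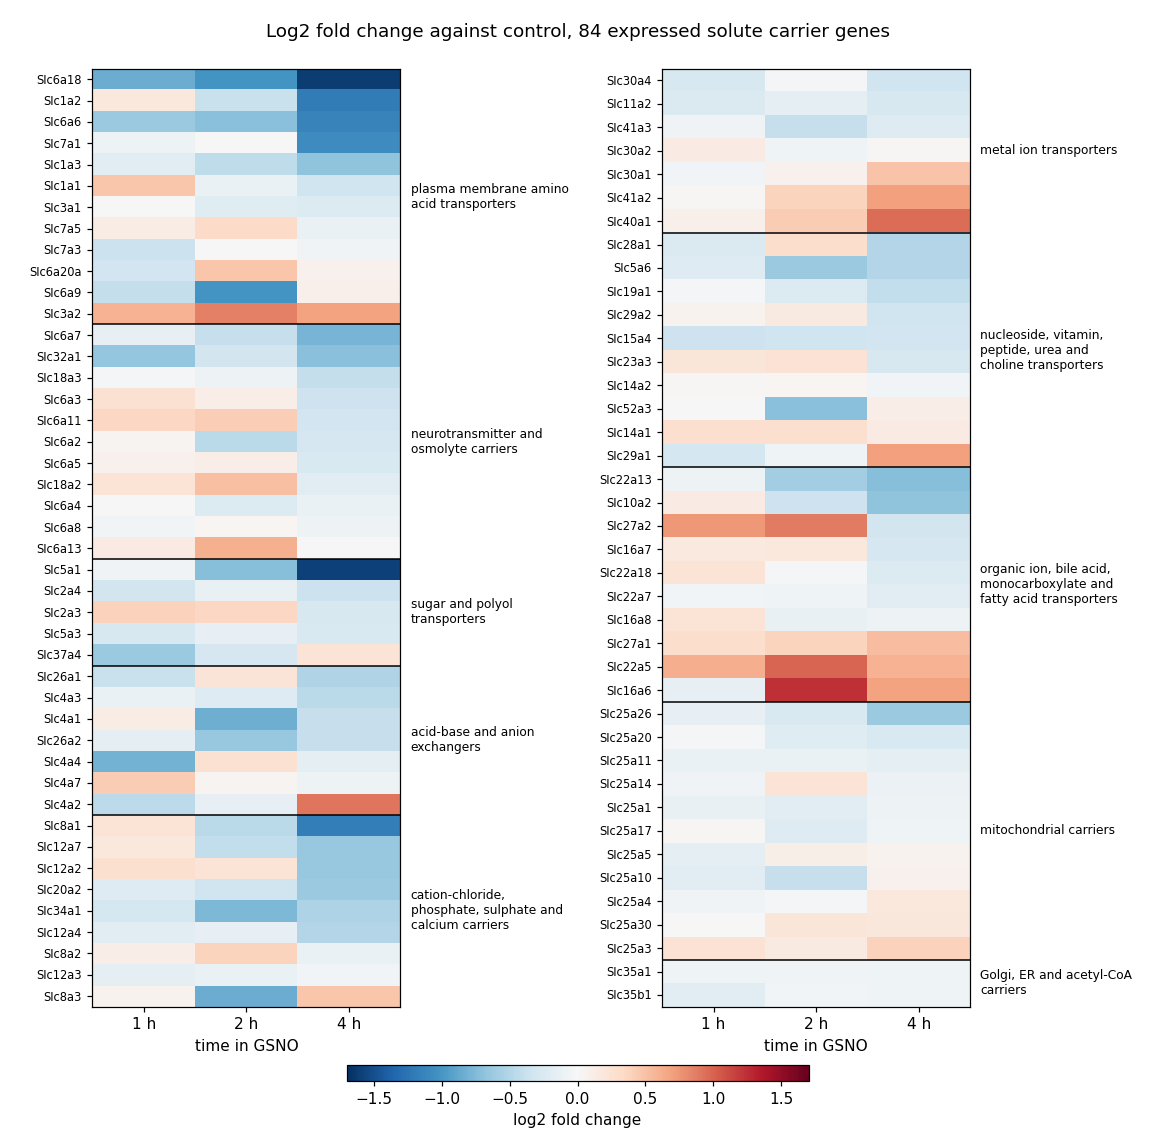
Log2 fold change against untreated cells at 1, 2 and 4 h for the 84 expressed solute carrier genes, in 10 groups by transported solute and ordered by the 4 h value within each; blue is lower, red is higher and the scale is linear. The darkest blue cells are Slc6a18 (−1.61) and Slc5a1 (−1.59) at 4 h, and mitochondrial carriers stay between −0.63 and 0.39 there.

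Between GSNO times no carrier passed in the fit without the block. It called 0% of all probe sets from 1 h to 2 h, 0% from 2 h to 4 h and 0.476% from 1 h to 4 h, and at an unadjusted p under 0.05 it took 1, 5 and 8 carriers (2.79%, 5.62% and 9.04% of all probe sets). The paired fit called 0.034%, 0.544% and 5.1% of all probe sets, and 0, 0 and 1 carriers, the 1 being Slc37a4. Over the 3 times together the F test called no carrier (1.14% of all probe sets), and 2 in the paired fit (5.94%), Slc3a2 (adjusted p = 0.0311) and Slc6a9 (0.0426). At an unadjusted p under 0.05 the 4 h against 1 h contrast took Slc37a4, Slc29a1, Slc5a1, Slc7a1, Slc12a2, Slc12a7, Slc10a2 and Slc1a2.

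Genes that work beside the carriers were taken as short lists. Of the ATF4 and amino acid response genes 10 of 11 were kept, and Cebpb passed at every time in the fit without the block (2.48, 2.21 and 2.19 on the log2 scale). The list held 22 genes, of which 11 were on the array. Among the 10 kept the median was 0.24 at 1 h, 0.49 at 2 h and 0.001 at 4 h. At 4 h 5 of them lay above 0 and 5 below. The paired fit added Ddit3 at 1 h and 2 h (1.62 and 1.32) and Ppp1r15a at 1 h (1.71), both stress response genes, and the kinase-like Trib3 at 4 h (1.49), all higher. It added Phgdh, a serine synthesis enzyme, and Vldlr at 4 h as lower (−0.75 and −0.79). With a common median added, the paired adjusted p was 0.236 for Phgdh, 0.205 for Vldlr and 0.095 for Ddit3 at 2 h. With the recorded experiment as block Ddit3 at 2 h passed, while Ddit3 and Ppp1r15a at 1 h, and Trib3, Phgdh and Vldlr at 4 h, did not (0.0601 to 0.251). In the glutathione synthesis list 4 of 5 were kept, and Gclc, the catalytic subunit of glutamate-cysteine ligase, passed at every time (2.76, 4.08 and 4.46), with Gclm (2.20) and Gsr (1.00) added at 4 h in the paired fit. With the recorded experiment as block the adjusted p was 0.058 for Gclm and 0.0489 for Gsr. The sodium pump subunits, which set the gradient that many carriers use, had 5 of 7 kept and none passing; Atp1b2 read 219 and 218 untreated and 110 and 95.2 at 4 h (−0.95 ± 0.33). The partner list had 6 of 7 kept and none passing; the kinase Oxsr1, which acts on cation-chloride cotransporters, read 303 and 261 untreated and 81.1 and 161 at 4 h (−1.15 ± 0.39, adjusted p = 0.277).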

How the data were processed

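RNA was labelled with biotin and hybridized to rat U-34A arrays, per the labels' protocols. The deposited value table holds linear signal intensity per probe set, made by the authors with Affymetrix software (version 5.0 per the series' design text) and scaled by them so that the 2% trimmed mean was 500. The 8 scanner records were read for batches only. Of 8799 probe sets 59 control features were left out, and the 5877 at or above the 40th percentile of signal on 2 or more arrays were kept. The log2 of signal plus 21.1 (the median 20th percentile) was fitted with limma 3.58.1 in R 4.3.3 over all 8 arrays (4 residual degrees of freedom, 3 with the array number as a block). Tests were two-sided with Benjamini-Hochberg adjustment at 0.05. The number marks a scan day, and the pairing rests on same-number correlations over 0.1 in every pair of groups; chip lots and recorded experiments do not match it fully. The labels do not say that it marks the preparation. Symbols came from the platform annotation (7018 single, 308 with several, 1473 with none). Named genes were those called in either fit, the 5 largest changes per time, the 10 highest control signals, and the highest and most changed gene of each of 10 groups. The members, lists and motifs were chosen with earlier results of these data known. The code was tested on simulated data.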

Additional observations from a re-analysis of the deposited data

How the results depend on the processing

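The array number, used as a replicate block, moved the counts of carriers called from 0 to 2 at 2 h, 3 at 4 h, 1 for 4 h against 1 h and 2 in the F test; it moved no count at 1 h, for 2 h against 1 h or for 4 h against 2 h. The alternatives that follow, apart from the replicate block alone, the common median alone, no filter, the mean of a gene's probe sets and leaving out arrays without the block, were chosen after seeing the data. The recorded experiment as block called 1 at 2 h (Slc3a2) and 0 in every other comparison, 4 h included, and moved the median log2 fold change at 1 h to 0.0927. Under this block 1 h and 4 h share an experiment with untreated cells only in the second arrays. The block with quantile normalization called 1 at 2 h, 3 at 4 h, 1 for 4 h against 1 h and 1 in the F test. The block with a common median called 2 at 4 h, 3 for 4 h against 1 h (Slc37a4, Slc29a1 and Slc40a1) and 1 in the F test. Leaving out 1 array in turn gave 0 to 1 without the block at 4 h and in the F test. With the block it gave 0 to 2 at 2 h, 0 to 6 at 4 h, 0 to 3 for 4 h against 2 h, 0 to 4 for 4 h against 1 h and 0 to 5 in the F test. The highest of these at 4 h, in the contrasts of 4 h with other times and in the F test came without the second 4 h array, which leaves the first as the only 4 h array and assumes that it varies as the others do. The median at 2 h was −0.0214 with no filter, −0.13 with a common median (with or without the replicate block) and −0.0371 with the mean of a gene's probe sets; leaving out 1 array gave −0.0988 to 0.0005 (the latter without the second 2 h array), and with the block −0.144 to −0.0365. With 1 array left out Slc6a6 at 1 h ran from −1.46 to 0.19 (above 0 without the first control array, at 0.05, or the second 1 h array), Slc27a2 at 1 h from −0.0283 (without the second 1 h array) to 1.51, and Slc8a1 at 4 h from −2.54 to 0.18 (without the first 4 h array). The cause was not tested. The number of 2 arrays a group limits the precision, with a median SE at 4 h of 0.374, and of 0.293 with the block.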

Other observations

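Other transporter families on the array were read in the same way. Of 12 ABC transporters, the pumps that use ATP, 8 were kept and none passed in the limma fit without the block. Abcc9, the sulphonylurea receptor that forms vascular ATP-sensitive potassium channels, read 417 and 531 untreated, 321 and 522 at 1 h, 329 and 204 at 2 h and 227 and 58.6 at 4 h. Its 4 h difference was −1.81 ± 0.53 (SE), with an adjusted p of 0.181 and of 0.0416 with the replicate block. The latter was 0.0635 with a common median added and 0.0778 with quantile normalization, and with the recorded experiment as block it was 0.183. The difference was −0.82 within the arrays numbered 1 and −2.79 within those numbered 2. Of 6 SLCO organic anion transporters 2 were kept. Slco2a1, the prostaglandin transporter, read 126 and 71.5 untreated, 158 and 120 at 1 h, 92.5 and 145 at 2 h and 555 and 255 at 4 h. Both 4 h arrays lay above all 6 others, and the difference was 1.77 ± 0.44 (SE), with an adjusted p of 0.112 and of 0.0185 with the replicate block, and of 0.17 with the recorded experiment as block.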
